A study of Homo sapiens with 6 samples.

Results

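The genes described here are 46 that license replication origins and build and run the replication fork: the origin recognition complex, the loading factors, the MCM2-7 helicase, its firing kinase and activators, the sliding clamp and its loader, the primase and polymerases, the factors that bind single strands and join Okazaki fragments, and the chromatin factors that follow the fork. They were chosen by name, as rows whose symbol matched a listed member, and 46 of the 28565 genes in the count table matched. The members, and the lists of other genes and markers used below, were chosen with earlier results of these data known. Shares of them set beside those of all genes are therefore descriptions and not independent tests. All 46 are protein-coding and all 46 passed the filter on low counts, with 23 counts (POLE2) as the lowest value of any member in any library and 3856 (MCM4) as the highest. RNA was sequenced after ribosomal RNA depletion from HK-2, an established human renal tubular epithelial line, in 6 libraries. Every library, those at 0 h included, came from cells that had received an overexpression plasmid for the long noncoding RNA called LncR2 in the titles, delivered by lipofection. The labels assign 3 libraries to 0 h of cisplatin and 3 to 24 h of cisplatin, a platinum drug that crosslinks DNA, and its dose is not given in the sources used here. Cells with the control plasmid were not analysed here, so the part of LncR2 was not tested, and cisplatin and time in culture cannot be told apart. The labels do not say that the 3 libraries of a group were separate cultures, and the design text speaks of 2 biological replicates, so p-values measure only the spread between these libraries, which may be technical.

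Replication is licensed when the origin recognition complex, CDC6 and CDT1 load the ring of MCM2 to MCM7 onto DNA in G1, and geminin (GMNN) blocks CDT1 once S phase has begun. The kinase CDC7 with its activator DBF4, and MCM10, CDC45 and the GINS complex, then turn the loaded ring into a moving helicase. Behind it PCNA, loaded by replication factor C (RFC1 to RFC5), holds the polymerases on DNA, and polymerase alpha with primase starts each strand. Many of these genes are transcribed at the G1/S boundary by E2F factors, and crosslinks in the template stall forks and switch on the checkpoint kinases.

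In edgeR's quasi-likelihood fit of the whole table (13389 genes tested, Benjamini-Hochberg adjusted p under 0.05), 2 of the 46 genes rose and 0 fell at 24 h, where 0.866% of all genes tested were called higher and 2.08% lower. Those 2 were CDT1, the loading factor, and CDC45, the helicase activator, each 1.39-fold higher. Among all 46, 36 log2 fold changes were above 0 (78.3%, against 49.7% of all genes) and the median was 0.15, against -0.0016 over all genes tested. The 10 below 0 were ORC4, ORC5, MCM3, MCM6, CDC7, DBF4, GINS1, GINS3, RFC4 and POLD3. With library totals taken from the deposited FPKM (fragments per length of gene and library total) only DBF4 of these stayed below 0. Those totals put 81.1% of all genes above 0. An unadjusted p under 0.05 was found for 16 higher members and 1 lower one, DBF4, where 8.22% of all genes tested were higher and 9.93% lower by the same rule. In 16 members every library at 24 h lay above every library at 0 h, which held for 10.9% of all genes, and in 0 members did every library at 24 h lie below, which held for 11.7%. The 16 are ORC1, CDC6, CDT1, MCM4, MCM7, MCM10, CDC45, RFC2, RFC5, PRIM1, POLD2, POLE2, FEN1, LIG1, CHAF1B and UHRF1. In bulk RNA a change in the number of cells in S phase and a change in RNA per cell cannot be told apart.

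Neither call held without 0 h replicate 2 or without any single library at 24 h, although the log2 fold changes in those 4 fits, 0.40 to 0.52 for CDT1 and 0.42 to 0.49 for CDC45, stayed near the 0.47 of the full fit. Without 0 h replicate 2, 24 h replicate 1, 24 h replicate 2 or 24 h replicate 3 the number of members called higher was 0, but so few genes were called in these fits (0.176%, 0.425%, 0.153% and 0.38% of all tested) that 0 of 46 is no result about the members. Without 0 h replicate 1 it was 3, where 0.734% of all genes were called higher, and without 0 h replicate 3 it was 11, where 4.18% were. Over 19 alternative settings of scaling, filter, model and libraries, adjusted p ran from 0.000637 to 0.146 for CDT1 and from 0.00122 to 0.219 for CDC45, and the log2 fold change of both stayed above 0 in all 19 alternatives. For CDT1 the lowest was 0.34, with a correction of each library for GC content. For CDC45 it was 0.39, without both libraries numbered 3, where CDC45 was not called (edgeR, adjusted p = 0.0609). Libraries at 0 h held 5028881 to 5844246 counts each, and those at 24 h held 6022268 to 7248754. On the first principal component of all genes tested, 0 h replicate 3 was at 1.28, between the other libraries at 0 h (-23.8 and -24.5) and those at 24 h (6.29 to 22.9). Of 14 epithelial and kidney tubule markers in the table, 6 had under 10 counts in every library, and the summed level was 1141 to 1197 CPM (counts scaled to a common total per library, after TMM normalization) at 0 h and 1067 to 1212 CPM at 24 h. The keratins KRT8 and KRT18 and the kidney transcription factor PAX8 had at least 1604, 1089 and 1842 counts in each library, whereas the proximal tubule genes CUBN and AQP1 had at most 6 and 3 counts, the tubule regulator HNF4A at most 2 and the epithelial cadherin CDH1 at most 1. Summed levels of the 5 endothelial markers were at most 0.399 CPM at 0 h and 0.868 CPM at 24 h, and those of the 5 leukocyte markers 2.59 to 3.18 and 1.51 to 3.62 CPM. The 6 fibroblast markers summed to 16.0 to 18.4 CPM at 0 h and 16.7 to 20.5 CPM at 24 h, mostly from LUM and COL1A1.

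**Figure D1:**
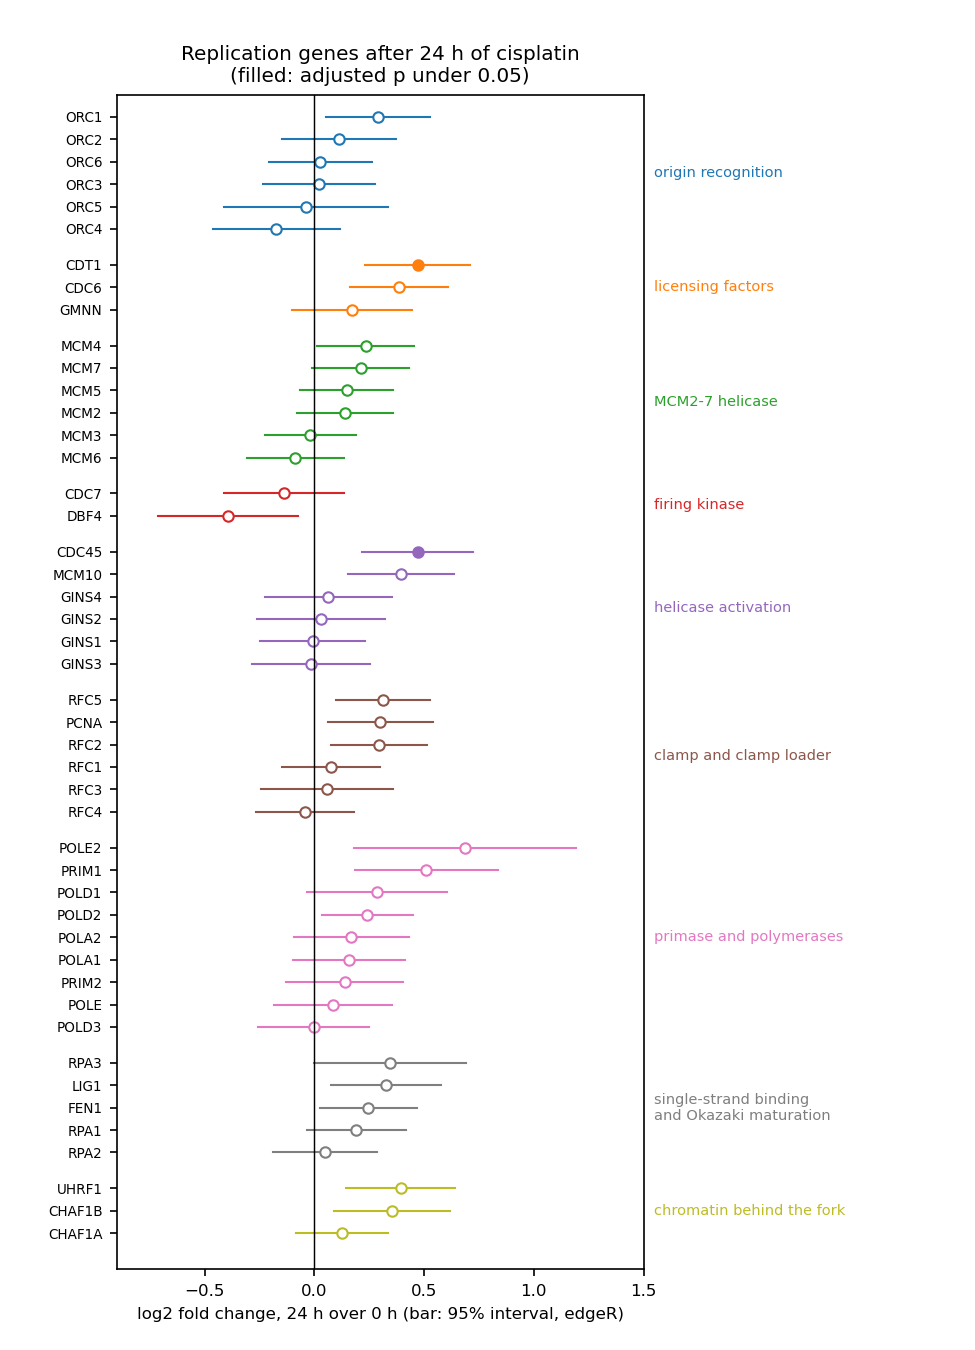
Log2 fold change of each replication gene at 24 h over 0 h (x axis) with its 95% interval from edgeR, grouped by role; filled points passed the adjusted threshold. CDT1 and CDC45 are the 2 filled points, and DBF4 has the lowest value of the 46.

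The sequences before a RefSeq start of 4 of these genes are shown as examples of E2F-type words. Many, but not all, of the members hold such words near their starts, and no single word is common to the 4. They are the 2 called genes, CDC6 as the licensing factor nearest to them, and MCM6 as a member with a log2 fold change of -0.09. Each line gives the 250 bases before the RefSeq start (GRCh38.p14), 5′ to 3′ on the gene's strand, with E2F-type words in capitals. The words searched on both strands were TTTCCCGC, TTTCGCGC, TTTGCCGC and TTTGGCGC, and GGCGGGA, whose opposite strand overlaps TTTCCCGC where a further C follows. The window of CDT1 is chr16:88803539-88803788 (plus strand), that of CDC45 chr22:19479670-19479919 (plus, 1 of 3 RefSeq starts), that of CDC6 chr17:40287629-40287878 (plus) and that of MCM6 chr2:135876444-135876693 (minus). GENCODE places the starts of the genes elsewhere, at 88803213 for CDT1, 19479459 for CDC45 and 40287633 for CDC6. By those positions the windows of CDT1 and CDC45 lie inside the gene, and that of CDC6 almost wholly so.
CDT1: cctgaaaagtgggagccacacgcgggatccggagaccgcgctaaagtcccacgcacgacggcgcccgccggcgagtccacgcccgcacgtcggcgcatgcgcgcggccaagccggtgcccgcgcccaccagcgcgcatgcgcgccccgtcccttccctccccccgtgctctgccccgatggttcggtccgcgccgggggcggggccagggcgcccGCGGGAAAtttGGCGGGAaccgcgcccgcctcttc
CDC45: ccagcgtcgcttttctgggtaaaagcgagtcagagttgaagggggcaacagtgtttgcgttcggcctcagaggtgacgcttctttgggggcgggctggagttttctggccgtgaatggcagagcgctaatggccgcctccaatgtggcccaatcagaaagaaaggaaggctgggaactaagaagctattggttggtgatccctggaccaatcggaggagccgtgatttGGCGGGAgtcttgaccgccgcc
CDC6: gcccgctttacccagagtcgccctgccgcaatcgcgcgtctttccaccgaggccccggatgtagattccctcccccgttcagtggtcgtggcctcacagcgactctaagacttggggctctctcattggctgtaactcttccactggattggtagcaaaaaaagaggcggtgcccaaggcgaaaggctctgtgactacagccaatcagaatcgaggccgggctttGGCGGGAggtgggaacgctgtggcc
MCM6: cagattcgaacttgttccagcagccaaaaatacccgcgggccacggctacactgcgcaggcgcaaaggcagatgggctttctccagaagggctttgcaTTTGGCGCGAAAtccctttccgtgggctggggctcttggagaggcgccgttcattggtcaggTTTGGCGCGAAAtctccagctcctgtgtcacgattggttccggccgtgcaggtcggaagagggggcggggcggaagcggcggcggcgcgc

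The word GGCGGGA began 24 bases before the start in CDT1, 22 in CDC45 and 25 in CDC6, and CDT1 held TTTCCCGC as well, on the other strand, 35 bases before. MCM6 held TTTGGCGC at 2 places, beginning 152 and 90 bases before the start, each overlapped by TTTCGCGC on the other strand. RefSeq windows from 250 bases before to 50 after the start matched 40 of the 46 genes by symbol, with 52 windows in all. Of those 52, 38 (73.1%) held at least 1 of these words, against 17.3% of all 35116 windows of the same length. By gene, 35 of the 40 held one, and these 35 ranged in log2 fold change from -0.17 to 0.69 with a median of 0.16. The 5 matched genes with none, ORC1, ORC6, DBF4, POLD1 and FEN1, ranged from -0.40 to 0.29 with a median of 0.25, so that members with values near or below 0 held the words too. CCAAT, the core of NF-Y sites, was in 28 of the 52 windows (53.8%, against 34.6% of all), and TTTGAA, the CHR word of many mitotic promoters, in 1 window, that of DBF4 (1.92%, against 15.2% of all). A matching word is a description of the sequence and not a site shown to be bound.

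**Figure D2:**
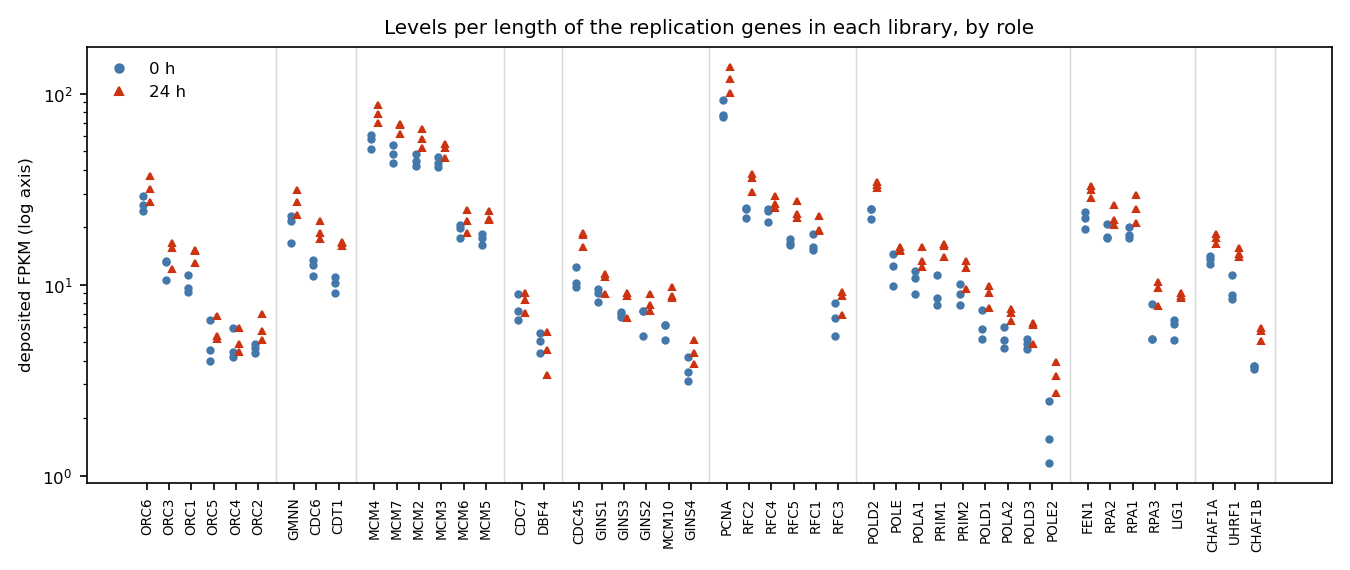
Deposited FPKM of each gene in each library (y axis, log scale), ordered within each role by the mean at 0 h; circles are 0 h and triangles 24 h. PCNA and MCM4 lie highest and POLE2 lowest at both times.

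Levels between genes are compared in FPKM, which is per length. At 0 h they ran from 1.72 ± 0.662 FPKM for POLE2, a subunit of polymerase epsilon, to 81.8 ± 9.68 for PCNA, the clamp (mean ± SD, n = 3). MCM4 was second at 56.6 ± 4.64 FPKM, followed by MCM7 (48.6 ± 5.12), MCM2 (44.9 ± 3.02) and MCM3 (43.7 ± 2.84). The means of the last 3 were close beside their spread, but within every library MCM7 was above MCM2 and MCM2 above MCM3. The same 5 genes led in the same order at 24 h, from 51.0 ± 4.36 FPKM for MCM3 to 119 ± 19.0 for PCNA. At the other end, GINS4 (3.60 ± 0.542 FPKM) and CHAF1B (3.70 ± 0.0608) came after POLE2 at 0 h and did not differ beyond their spread, and ORC2 (4.65 ± 0.246) and ORC4 (4.85 ± 0.942) followed. Deposited FPKM were scaled to other library totals than the counts, which by themselves moved the median gene by 0.24 on the log2 scale between the times. Changes are therefore given in CPM and as edgeR log2 fold changes, relative to the median gene.

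Among the origin recognition genes, 0 of 6 passed and the median log2 fold change was 0.02. Beside the count of each role group, here and below, stand the shares of all genes called, 0.866% higher and 2.08% lower. At those shares a count of 0 is no result about so small a group, and a count of 1 rests on a single gene. ORC1, the ATPase subunit whose protein comes and goes with the cell cycle, measured 63.0, 50.6 and 54.0 CPM at 0 h and 66.8, 70.2 and 67.7 at 24 h, so that all 3 libraries at 24 h were the highest, although 0 h replicate 1 came close. Its log2 fold change was 0.29 ± 0.11 (edgeR, adjusted p = 0.176). Here and below, ± after a log2 fold change is a standard error derived from the edgeR test, not an SD between libraries. ORC6, the smallest subunit and the most abundant mRNA of the 6 per length, measured 79.2, 84.7 and 95.5 CPM at 0 h and 80.8, 85.5 and 97.8 at 24 h (log2 fold change 0.03 ± 0.11), and its groups overlapped almost fully. The remaining subunits were at 0.11 ± 0.12 for ORC2, 0.02 ± 0.12 for ORC3, -0.17 ± 0.14 for ORC4 and -0.04 ± 0.18 for ORC5 on the log2 scale, with 95% intervals that all held 0. As a share of the summed FPKM of the 6 mRNAs, a quantity free of library scaling, ORC6 made up 41.9% ± 0.775 at 0 h and 41.0% ± 0.926 at 24 h (SD, n = 3), and ORC1 15.9% ± 2.72 at 0 h and 18.6% ± 1.40 at 24 h. The ORC1 share was 19.0% in 0 h replicate 1 and 14.6% and 14.0% in the other libraries at 0 h, so the groups overlapped.

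The licensing factors had 1 of 3 called and a median of 0.38. CDT1 (ENSG00000167513.8, chromosome 16, 88803213 to 88809258, plus strand in GENCODE 29), which carries the MCM ring to the origin, measured 63.0, 58.2 and 52.1 CPM at 0 h and 87.9, 78.4 and 73.9 at 24 h. Its lowest library at 24 h was above the highest at 0 h, and the log2 fold change was 0.47 ± 0.11 with a 95% interval of 0.23 to 0.71 (edgeR, adjusted p = 0.0337). CDC6, the ATPase that joins the recognition complex before the ring is loaded, measured 109, 93.5 and 116 CPM at 0 h and 136, 132 and 148 at 24 h. Every library at 24 h exceeded every library at 0 h for CDC6 too, yet at 0.38 ± 0.11 it missed the threshold in the edgeR test (adjusted p = 0.0633, and 0.00165 to 0.333 over the alternatives, 9 of 19 of which called it). GMNN, the inhibitor of CDT1, measured 40.3, 51.4 and 55.4 CPM at 0 h and 51.1, 53.8 and 60.6 at 24 h. Only 24 h replicate 3 was above all libraries at 0 h for GMNN, and 0 h replicate 1 was the lowest of the 6, with a log2 fold change of 0.17 ± 0.13 (interval -0.10 to 0.44).

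The ratio of CDT1 to GMNN in FPKM was 0.656, 0.476 and 0.394 at 0 h and 0.721, 0.611 and 0.511 at 24 h. It overlapped between the times, and its log2 mean differed by 0.29 with p = 0.3 in a two-sided exact permutation test of 3 against 3 libraries, which cannot go below 0.1. Within each time the ratio was highest in replicate 1 and lowest in replicate 3. CDC6 against ORC6, a pair chosen after the values were seen, had FPKM ratios of 0.525, 0.421 and 0.463 at 0 h and 0.643, 0.587 and 0.577 at 24 h, without overlap.

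**Figure D3:**
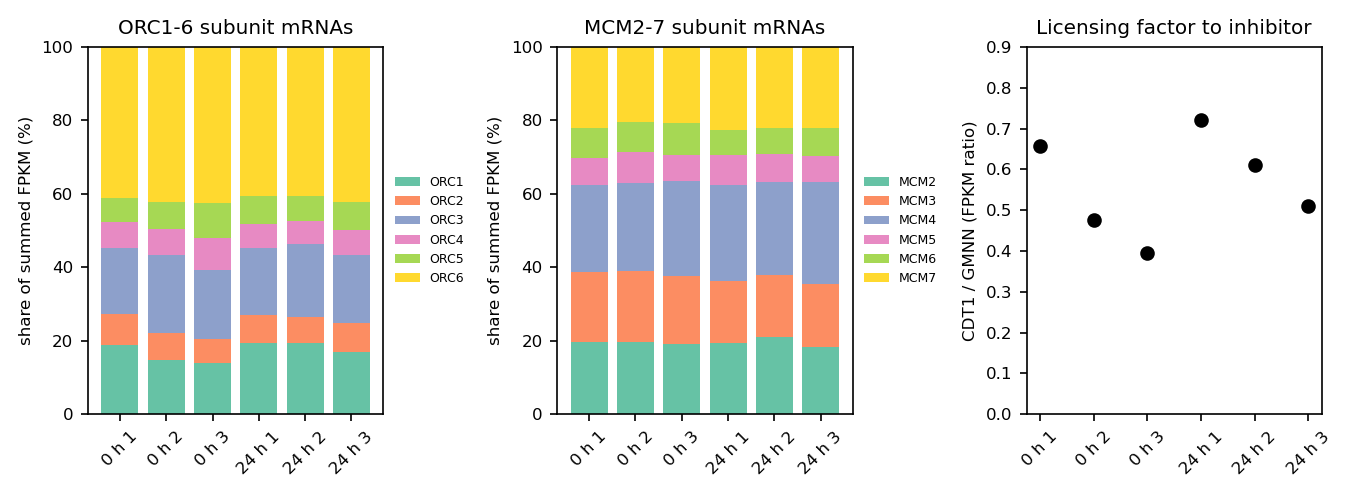
Share of each subunit mRNA in the summed FPKM of ORC1 to ORC6 and of MCM2 to MCM7 (y axis, %) and the FPKM ratio of CDT1 to GMNN (right) in each library. ORC6 holds the largest share of its complex and MCM4 of its own in all 6 libraries, and the CDT1 to GMNN ratios of the times overlap.

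In the MCM2-7 helicase, the ring that unwinds DNA, 0 of 6 passed, with a median of 0.14. MCM4, the most abundant subunit mRNA, measured 435, 382 and 455 CPM at 0 h and 483, 483 and 529 at 24 h. All 3 libraries at 24 h were above those at 0 h, by a margin that was small beside the spread at 0 h, and the log2 fold change was 0.23 ± 0.10 (edgeR, adjusted p = 0.246). MCM7 measured 351, 280.1 and 315 CPM at 0 h and 364, 366 and 364 at 24 h, with nearly equal libraries at 24 h and 0.21 ± 0.10 on the log2 scale, while MCM2 (0.14 ± 0.10) and MCM5 (0.15 ± 0.10) overlapped. MCM6 measured 132, 115 and 137 CPM at 0 h and 113, 118 and 131 at 24 h, the groups overlapping throughout. Log2 fold changes of MCM3 and MCM6 were -0.02 ± 0.10 and -0.09 ± 0.10, with 95% intervals of -0.23 to 0.19 and -0.31 to 0.13. The ring holds each of the 6 proteins in equal number, but their mRNAs were unequal per length: MCM4 made up 24.5% ± 1.20 at 0 h and 26.3% ± 1.27 at 24 h of their summed FPKM (SD, n = 3), and MCM5 7.56% ± 0.670 at 0 h and 7.62% ± 0.583 at 24 h. The share of MCM3 was 19.0% ± 0.352 at 0 h and 17.1% ± 0.259 at 24 h and that of MCM6 8.38% ± 0.369 at 0 h and 7.19% ± 0.504 at 24 h, and in both every library at 24 h was below every library at 0 h. These share differences were chosen after the values were seen and were not tested. Exons of MCM2 overlap genes on the opposite strand over 23.6% of their bases, and use of strand in the counting is not given in the sources used here.

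Both members of the firing kinase had values below 0 with TMM scaling, which held for no other role group, but CDC7 was at 0.10 with library totals from the FPKM. DBF4, which activates CDC7, measured 30.5, 34.9 and 38.7 CPM at 0 h and 21.4, 25.9 and 31.5 at 24 h. The 2 lowest values of the 6 were 24 h replicates 1 and 2, and 24 h replicate 3 lay inside the range at 0 h. Its log2 fold change of -0.40 ± 0.15 was the lowest of all 46 and did not pass (edgeR, adjusted p = 0.172), and it was below 0 in all 19 alternatives. CDC7, the catalytic subunit, measured 43.7, 38.8 and 53.3 CPM at 0 h and 38.9, 41.0 and 43.7 at 24 h and was at -0.14 ± 0.13, with 0 h replicate 3 as its highest library. Without that library its value was 0.0044, so that its direction rested on 1 library.

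Of the helicase activators, 1 of 6 passed and the median was 0.05: CDC45 rose, MCM10 missed the threshold and the 4 GINS genes had values near 0. CDC45 (ENSG00000093009.9, chromosome 22, 19479459 to 19520612, plus strand), which binds the ring with GINS to form the active helicase, measured 48.2, 39.0 and 37.6 CPM at 0 h and 56.1, 58.5 and 58.3 at 24 h. The libraries at 24 h were tightly grouped and all above those at 0 h, among which replicate 1 was the highest. Its log2 fold change was 0.47 ± 0.12 with an interval of 0.22 to 0.72 (edgeR, adjusted p = 0.0437). MCM10, which helps to set the loaded helicase in motion, measured 50.6, 41.8 and 50.8 CPM at 0 h and 64.5, 59.5 and 64.7 at 24 h. It too had separate groups, but at 0.40 ± 0.11 it missed the threshold (edgeR, adjusted p = 0.0742). GINS1, GINS2, GINS3 and GINS4, the subunits of the GINS complex, had log2 fold changes of -0.01 ± 0.11, 0.03 ± 0.14, -0.01 ± 0.13 and 0.06 ± 0.14, and every interval held 0, with upper ends from 0.23 (GINS1) to 0.35 (GINS4). GINS1 measured 46.9, 51.6 and 54.9 CPM at 0 h and 47.0, 54.3 and 51.2 at 24 h, without any separation. The FPKM ratio of CDC45 to GINS1 was 1.53, 1.13 and 1.02 at 0 h and 1.77, 1.60 and 1.69 at 24 h, so that CDC45 stood higher against GINS1 in every library at 24 h, a comparison free of library scaling. That pair was chosen after the values were seen, and the difference between the 2 genes was not tested. Exons of GINS4 overlap genes on the opposite strand over 23.6% of their bases and those of GINS3 over 10.9%.

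**Figure D4:**
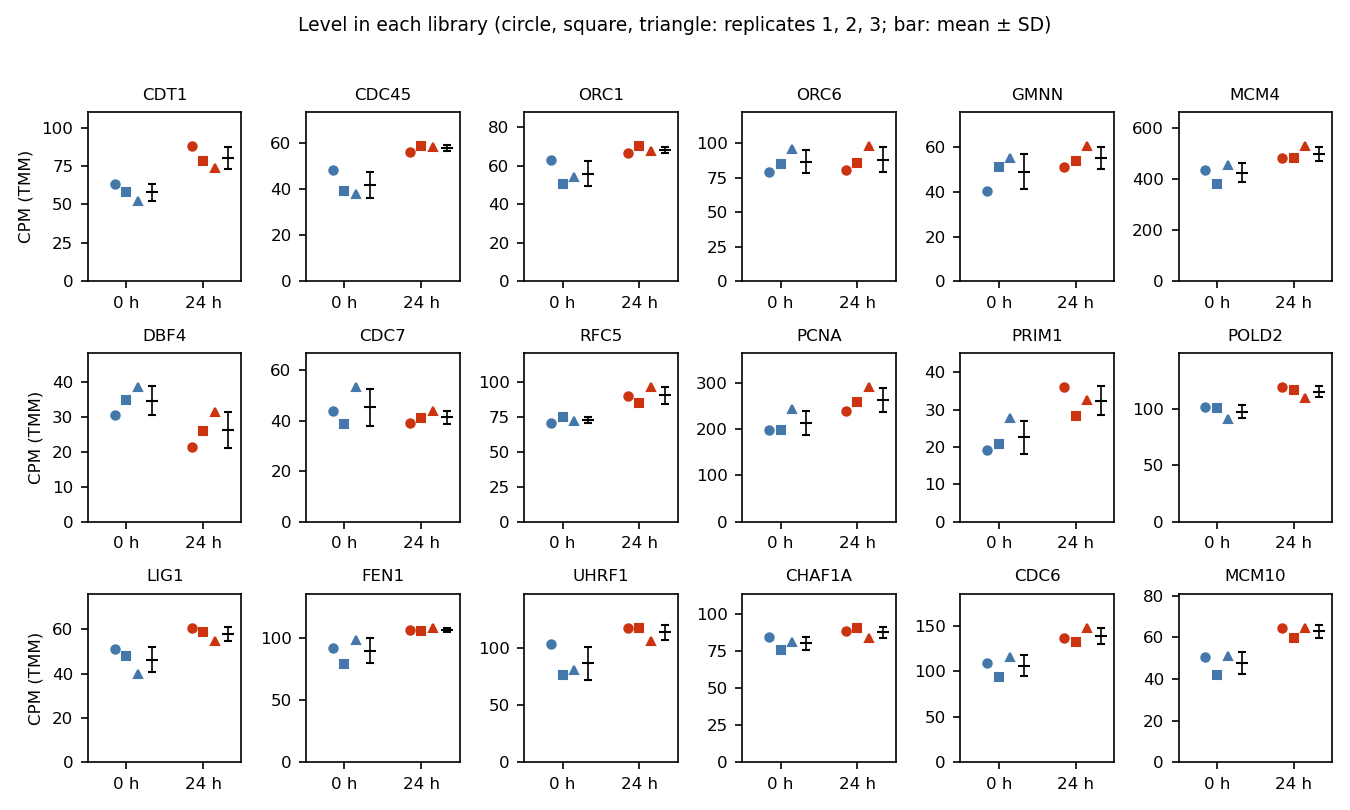
CPM of 18 replication genes in each library (y axis from 0, TMM-scaled totals), with the 3 replicates at 0 h and at 24 h as separate symbols and the mean ± SD beside them. CDT1, CDC45, CDC6 and MCM10 have separate groups, ORC6, GMNN and CDC7 overlap, and DBF4 lies lower at 24 h in 2 of 3 libraries.

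Of the clamp and clamp loader genes, 0 of 6 passed, with a median of 0.18. PCNA, the clamp and the most abundant of all 46 mRNAs per length, measured 198, 199 and 244 CPM at 0 h and 240.0, 258 and 292 at 24 h. Its 0 h replicate 3 exceeded 24 h replicate 1, and its log2 fold change was 0.30 ± 0.11 (edgeR, adjusted p = 0.167). RFC5, a small subunit of the loader, measured 70.6, 75.3 and 72.4 CPM at 0 h and 89.7, 84.8 and 96.5 at 24 h. All 3 libraries at 24 h were above those at 0 h, with 0.31 ± 0.10 (edgeR, adjusted p = 0.109). RFC2, another small subunit, measured 77.6, 68.4 and 78.2 CPM at 0 h and 86.6, 97.1 and 91.1 at 24 h and was at 0.29 ± 0.10, also without overlap. The other loader genes, RFC1, the large subunit (0.08 ± 0.11), RFC3 (0.06 ± 0.14) and RFC4 (-0.04 ± 0.11), had values near 0. FPKM ratios of RFC5 to RFC4, a pair chosen after the values were seen, were 0.759, 0.699 and 0.683 at 0 h and 0.894, 0.889 and 0.943 at 24 h. In all, 7 such pairs were computed and none was tested: CDC6 to ORC6, CDC45 to GINS1, RFC5 to RFC4 and PRIM1 to PRIM2 had separate times, whereas ORC1 to ORC2, DBF4 to CDC7 and MCM2 to MCM6 overlapped. The ratio of ORC1 to ORC2 was 2.29, 1.95 and 2.19 at 0 h and 2.55, 2.66 and 2.14 at 24 h, that of DBF4 to CDC7 0.602, 0.776 and 0.625 at 0 h and 0.475, 0.546 and 0.621 at 24 h, and that of MCM2 to MCM6 2.42, 2.39 and 2.17 at 0 h and 2.80, 3.05 and 2.35 at 24 h. Over 10.6% of their bases the exons of RFC5 overlap genes on the opposite strand.

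Primase and polymerase genes had 0 of 9 called and a median of 0.17, but also the 2 highest log2 fold changes of all 46. POLE2, the second subunit of polymerase epsilon, had the fewest counts of the 46, with 23, 31 and 55 in the libraries at 0 h against 59, 75 and 91 at 24 h. Its log2 fold change was 0.69 ± 0.24 with an interval of 0.18 to 1.19 (edgeR, adjusted p = 0.136). In CPM its lowest library at 24 h was 9.73 and its highest at 0 h 9.71, close to each other. PRIM1, the catalytic subunit of primase, measured 19.3, 20.8 and 27.7 CPM at 0 h and 36.1, 28.4 and 32.6 at 24 h. Its groups were separate, with 0 h replicate 3 just below 24 h replicate 2, and it was at 0.51 ± 0.15 (edgeR, adjusted p = 0.0900). PRIM1 shares 16.2% of its exon bases with genes on the same strand, NACA among them, so its counts are uncertain. PRIM2, its partner, was at 0.14 ± 0.13. POLD2, of polymerase delta, which makes most of the lagging strand, measured 101, 101 and 90.9 CPM at 0 h and 119.8, 117 and 110.1 at 24 h and had separate groups at 0.24 ± 0.10 (edgeR, adjusted p = 0.204). The catalytic subunits were at 0.16 ± 0.12 for POLA1, 0.29 ± 0.15 for POLD1 and 0.09 ± 0.13 for POLE, and the accessory subunits at 0.17 ± 0.12 for POLA2 and -0.004 ± 0.12 for POLD3. Groups overlapped for all 5. POLA2 shares 35.1% of its exon bases with another gene on the same strand and is uncertain.

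Among the genes that bind single strands or finish Okazaki fragments, 0 of 5 passed and the median was 0.25. FEN1, the flap nuclease and the most abundant of them per length, measured 91.9, 78.6 and 98.2 CPM at 0 h and 106, 105 and 108 at 24 h. The 3 libraries at 24 h were nearly equal and all above those at 0 h, at 0.25 ± 0.10 (edgeR, adjusted p = 0.224). LIG1, the ligase that seals the fragments, measured 50.8, 48.0 and 39.9 CPM at 0 h and 60.7, 58.6 and 54.6 at 24 h and was likewise separate, at 0.33 ± 0.12 (edgeR, adjusted p = 0.150). Of the subunits of RPA, which coats single strands, RPA1 was at 0.19 ± 0.11, RPA2 at 0.05 ± 0.11 and RPA3 at 0.34 ± 0.16, and all 3 overlapped between the times.

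For the chromatin factors that follow the fork, 0 of 3 passed and the median was 0.35. UHRF1, which brings the maintenance DNA methyltransferase to newly copied DNA, measured 103, 76.3 and 80.5 CPM at 0 h and 117, 118 and 106 at 24 h. Although 0 h replicate 1 was close to 24 h replicate 3, the groups were separate, and the log2 fold change was 0.39 ± 0.12 (edgeR, adjusted p = 0.0874, and 0.00200 to 0.363 over the alternatives). CHAF1B, a subunit of the histone chaperone CAF-1, measured 29.9, 29.4 and 29.0 CPM at 0 h and 41.7, 33.3 and 37.8 at 24 h, with nearly equal libraries at 0 h and 0.35 ± 0.13 (edgeR, adjusted p = 0.143). CHAF1A, its large partner and the more abundant mRNA, measured 84.1, 75.7 and 80.9 CPM at 0 h and 88.2, 90.7 and 83.7 at 24 h and overlapped, at 0.13 ± 0.10.

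Of 40 other replication genes, listed by function (licensing control, firing and fork protection, polymerase and clamp partners, fork chromatin), 1 rose and 0 fell. Over all genes tested, 0.866% were called higher and 2.08% lower. At those shares the 1 higher rests on a single gene, and the 0 lower is no result about 40 genes. Values were above 0 for 31 of the 40, where 49.7% of all genes were, and their median was 0.13, against -0.0016. In 10 of the 40 every library at 24 h lay above every library at 0 h, which held for 10.9% of all genes. In 3 every library at 24 h lay below, which held for 11.7%. The gene that rose was CLSPN, claspin, which links the fork to the checkpoint kinase CHK1. It measured 122, 118 and 146 CPM at 0 h and 175, 169 and 196 at 24 h, with every library at 24 h above those at 0 h, and its log2 fold change was 0.48 ± 0.11 (edgeR, adjusted p = 0.0252). Leaving out 0 h replicate 1 or 2 or any library at 24 h ended the call of CLSPN, with adjusted p from 5.2e-05 to 0.194 over the alternatives, while its log2 fold change was 0.41 or more in all 19. POLE4, a histone-fold subunit of polymerase epsilon, had the next smallest p, with 69.6, 55.3 and 60.6 CPM at 0 h and 80.3, 85.2 and 75.4 at 24 h and 0.38 ± 0.11 (edgeR, adjusted p = 0.0852). Among genes named after their values were seen, the fork protein WDHD1 was at 0.35 ± 0.11 and the PCNA-binding factor PCLAF (KIAA0101 in the table) at 0.36 ± 0.13. DBF4B, a second activator of CDC7, was at -0.66 ± 0.22 and TICRR, which helps to recruit CDC45, at -0.30 ± 0.12. Neither of these lower values passed, with edgeR's adjusted p = 0.118 and 0.201.

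Mitotic markers were lower in the same libraries. Of 10, 6 fell (TOP2A, CCNB1, PLK1, AURKA, CDC20 and CENPE) and 0 rose, where 2.08% of all genes tested were called lower and 0.866% higher. The 10 markers had a median of -0.45, and their summed level was 2399 to 2428 CPM at 0 h and 1663 to 1824 CPM at 24 h. The largest part of that sum was MKI67, at 1144 to 1281 CPM at 0 h and 859 to 1033 CPM at 24 h. MKI67 itself was not called (edgeR, adjusted p = 0.0729). The part of the mitotic markers in the values of the replication genes was not tested. The count of called members also depended on the library totals. Scaled by the totals recovered from the deposited FPKM, 26 of 46 were called higher, where 17.6% of all genes were. With them 45 of 46 values were above 0, DBF4 being the exception, where 81.1% of all genes were above 0. The median of the members exceeded that of all genes by 0.15 with those totals and by 0.15 with TMM. A change of totals shifts all genes by nearly the same amount, so this difference was kept by construction. With a correction of each library for GC content, 10 members were called higher, where 2.28% of all genes were: CDC45, CDC6, CDT1, CHAF1B, MCM10, PCNA, POLE2, PRIM1, RFC5 and UHRF1.

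**Figure D5:**
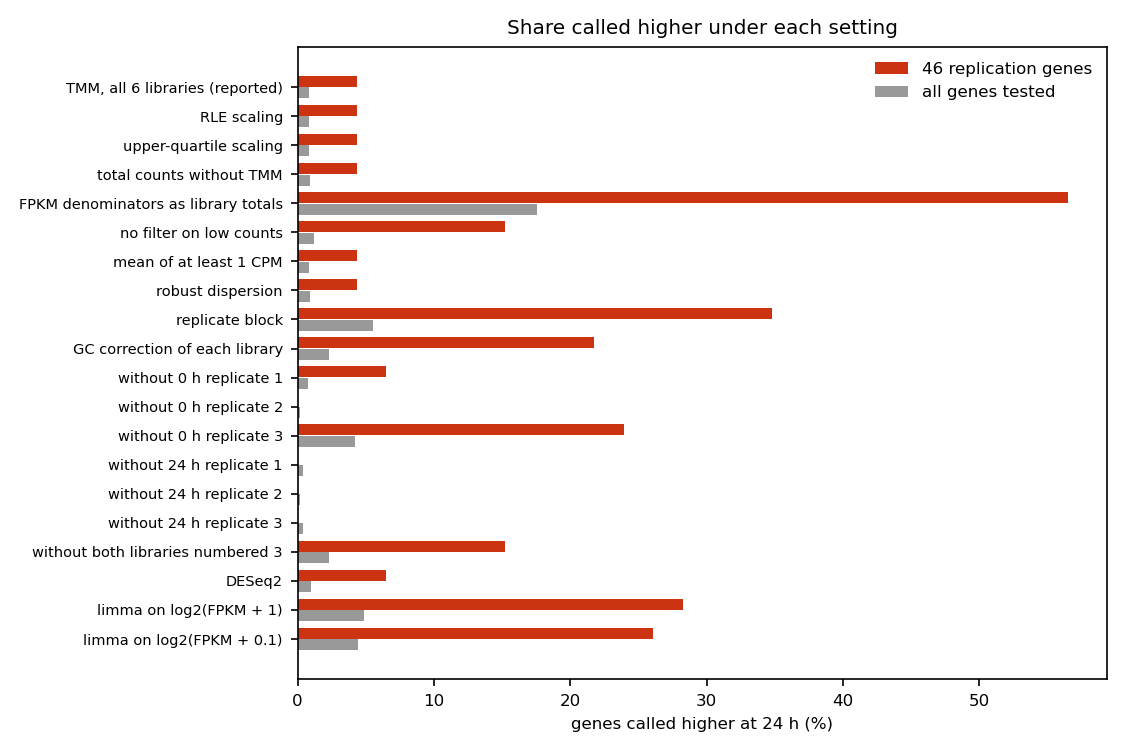
Share of the 46 replication genes (dark bars) and of all genes tested (grey bars) called higher at 24 h under the reported fit and each of the 19 alternatives (x axis, %). The members' share is 4.35% in the reported fit, 0 in 4 of the 6 fits without 1 library, and 56.5% with library totals from the FPKM.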

How the data were processed

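Gene counts and FPKM of 6 libraries were used. The deposited counts are whole numbers per gene, and the deposited FPKM are the authors' counts per length and library total, rounded by them. The submitters' processing notes name bcl2fastq, TopHat2 and edgeR, and GRCh38 as the build. Not given in the sources used here are versions, read counter, annotation release and strand setting, which leaves overlapping genes uncertain.

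Groups came from the treatment label. Counts were fitted with edgeR 4.0.16 (limma 3.58.1, R 4.3.3) by the quasi-likelihood test on all 6 libraries, with TMM scaling, filterByExpr and no covariates, and Benjamini-Hochberg adjustment over 13389 genes. The scripts were tested on simulated data. The common biological coefficient of variation was 0.103. Reads carry no molecular identifiers, so depth (5028881 to 7248754 counts per library) sets counting error only.

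The members and lists were chosen with earlier results of these data known. Members given with every library were those called and, in each of 9 role groups, the one with the smallest p and the one with the highest mean FPKM. Of the other pathway genes, they were those called and the 2 with the smallest p. CDC6, MCM10, MCM6, MCM7, GINS1, RFC2, POLE2 and CHAF1B were added after their values were seen. Library totals behind the FPKM were recovered from 3327 genes. Positions and exon overlap came from GENCODE 29, where 41 of the 46 gene identifiers had the same version, and promoter windows from RefSeq. The 19 alternatives covered scaling, filters, dispersion, a replicate block, GC content, DESeq2 1.42.0, limma on log2(FPKM + 1) and log2(FPKM + 0.1) with a mean FPKM of at least 0.5, and leaving out libraries.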

Additional observations from a re-analysis of the deposited data

How the results depend on the processing

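Beside 2 members called higher and 0 lower (1 and 0 of the other pathway genes, 116 and 278 of all genes), RLE, upper-quartile and total-count scaling, a minimum of 1 CPM and robust dispersion gave 2 members higher (117, 109, 119, 116 and 118 of all genes in turn), and DESeq2 gave 3 (125). Counts of calls higher, for members, other pathway genes and all genes in turn, were 26, 19 and 2354 with library totals from the FPKM (with 195 of all genes lower), which by construction raise nearly every value at 24 h. They were 7, 4 and 345 when low counts were not filtered, 10, 4 and 304 with GC correction (469 of all genes lower), and 7, 3 and 306 without both libraries numbered 3 (539 lower). CDC45 was not among the 7 members called without both libraries numbered 3. With limma the counts of calls higher were 13, 5 and 685 at a pseudocount of 1 (82 lower) and 12, 5 and 625 at 0.1 (74 lower). The limma fits used the deposited FPKM and so the same library totals, and the median of all genes was 0.18 and 0.23 in them. They are therefore not independent of the fit with those totals. For the settings other than the library totals from the FPKM the cause was not tested.

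Leaving out 1 library at a time gave 0 to 11 members, 0 to 6 other pathway genes and 21 to 574 of all genes higher, and 0 to 2 other pathway genes and 92 to 923 of all genes lower. The highest of each came without 0 h replicate 3. ORC6 ranged from -0.063 to 0.11 on the log2 scale, below 0 without 0 h replicate 1 (-0.03) or 24 h replicate 3. CDC7 ranged from -0.24 to 0.0044, above 0 without 0 h replicate 3, and was 0.10 with totals from the FPKM, 0.098 and 0.11 with limma. The CDT1 to GMNN ratio kept its direction in its 8 alternatives.

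Deviations from the group means correlated at 0.24, -0.02 and 0.42 for libraries numbered 1, 2 and 3. Across numbers, 0 h replicate 2 correlated best with 24 h replicate 1 (0.23). The correlation was -0.37 between 0 h replicate 3 and 24 h replicate 1, and -0.33 between 0 h replicate 1 and 24 h replicate 3. Whether libraries of the same number belong together is not stated in the labels and was not tested. With a replicate block, 16 members were higher and 1, DBF4, lower, 7 other pathway genes higher and 2 lower, and 739 of all genes higher and 959 lower. Counts as low as 23 per library limit POLE2 most.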
